A study of Mus musculus with 15 samples.

Results

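RNA sequencing of polyadenylated RNA set 3 mouse liver libraries labelled HFD-338 against 3 labelled HFD-NS. The 6 libraries were chosen by their labels from the 15 libraries of a mouse study of metabolic dysfunction-associated steatotic liver disease, in which liver fat accumulates on a high-fat diet. All genes were described: the deposited table lists 26264 genes, and of these 6882 were without a single count and 13189 held enough counts to be tested. The study's design names 2 treatments, resmetirom, which activates the beta receptor for thyroid hormone, and knockdown of the kinase STK25 with an agent called Gc337.

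The groups, with 3 libraries each, were HFD-338, HFD-337, HFD-Res, HFD-NS and SD-NS. HFD stands for the high-fat diet in the design text, and the labels spell out neither NS nor SD nor the number in HFD-338. What the HFD-338 group received is therefore known only by that number, and HFD-NS is the group on the same diet that carries NS in its place. Strain, sex, age, dose and duration are not given in the sources used here. Levels of Ddx3y and Kdm5d, both on the Y chromosome, as CPM (read counts scaled to library size), were at or above 19.4 in all 15 libraries, and both were named after their values were seen. Nothing in the sources used here says that the libraries of a group come from separate animals, so p-values measure only the spread between these libraries, which may be technical.

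Hepatocytes, the main cells of the liver, burn, make, store and export fat, and they make bile acids and most plasma proteins. In chronic liver injury, cells with bile duct markers often multiply in what is called a ductular reaction, stellate cells lay down collagen, monocytes from the blood become macrophages, and hepatocytes re-enter the cell cycle and regain genes of the fetal liver. STK25 is a serine/threonine kinase of the STRIPAK complex that in mouse liver promotes fat storage on lipid droplets.

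Library totals were 7961529, 7079830 and 7100274 counts in HFD-338 and 8762163, 8030651 and 9797743 counts in HFD-NS. The Pearson correlation of log2 levels across tested genes was 0.981 to 0.986 between HFD-338 libraries and 0.983 to 0.986 between HFD-NS libraries, against 0.921 to 0.945 between the groups. Per-library values below are in the order of replicates 17, 18 and 19 for HFD-338 and 12, 13 and 16 for HFD-NS. They are CPM on library sizes scaled by TMM, a trimmed mean that balances libraries. Fold changes are those of HFD-338 over HFD-NS on a log2 scale with a standard error (SE), and a gene is called at an adjusted p under 0.05 (edgeR's quasi-likelihood test, Benjamini-Hochberg over all 13189 genes).

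Of the 13189 genes, 4847 were called (36.8%). A total of 2490 rose (18.9%) and 2357 fell (17.9%) in HFD-338, and the median log2 fold change of all tested genes was 0.000933. The calls that were also at least 2-fold numbered 1784 (13.5%), and these were mostly rises, with 1381 up and 403 down. The HFD-338 libraries lay above every HFD-NS library for 25.4% of genes and below every one for 25.6%. The split of the calls was 55.2% rises with RLE size factors, where only the scaling differed. With limma on log2(TPM + 1), where the scaling, the filter and the test all differed from the edgeR fit and TPM, which also scales by transcript length, was recomputed from the counts, the median of all genes shifted to 0.115, 2782 genes rose and 1359 fell, so that 67.2% of calls were rises, against 51.4% with TMM. Each gene list described below with more rises than falls, or more falls than rises, kept that order with TPM.

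**Figure D1:**
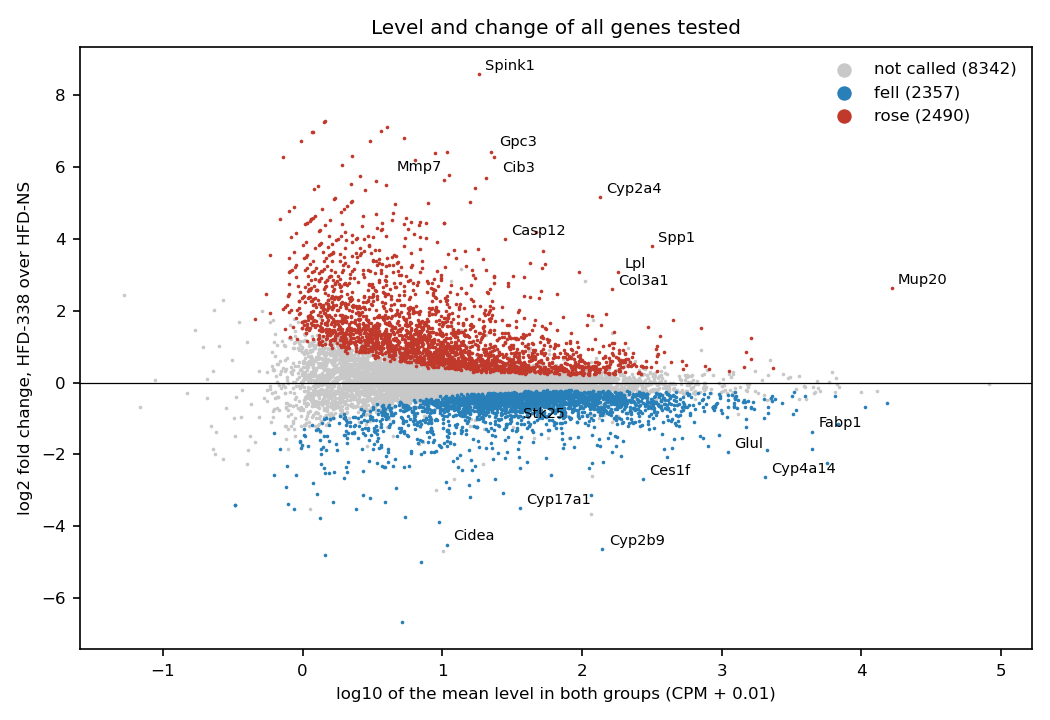
Each point is 1 of 13189 tested genes, with the log10 of its mean CPM over the 2 groups (plus 0.01) on the x axis and the log2 fold change of HFD-338 over HFD-NS on the y axis. Genes that rose are red (2490), genes that fell are blue (2357) and others are grey. The largest changes are rises, led by Spink1 at 8.58.

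Stk25, the kinase that the study targets, was lower in these livers, with a log2 change of -1.11 (SE 0.11, adjusted p = 6.41e-07, 3 of 3 libraries lower). Across 23.1% of its exon length Stk25 overlaps Farp2, and reads there were counted for both genes. Farp2 itself had 15.5, 17.8 and 18.3 CPM in HFD-338 and 23.0, 23.6 and 21.3 CPM in HFD-NS, a change of -0.40 (adjusted p = 0.0105), and this call was lost with TPM and without HFD-338 replicate 17. Compared directly, Stk25 was 0.29 higher on the log2 scale in HFD-338 than in HFD-337. Of the 16 tested genes of the STRIPAK list, 2 rose (12.5%, against 18.9% of all genes), 1 fell (6.25%, against 17.9%) and 13 were not called. Pdcd10, a scaffold that binds Stk25, rose to 29.2, 28.8 and 33.9 CPM in HFD-338, against 22.2, 24.1 and 23.9 CPM in HFD-NS (log2 0.39, adjusted p = 0.00623). Strn, the scaffold striatin, changed by 0.40 (adjusted p = 0.0261), which no longer passed when HFD-338 replicate 18 or 19 or HFD-NS replicate 12 was left out. Stk24, the closest relative of Stk25, had 21.1, 22.5 and 19.6 CPM in HFD-338 and 21.9, 22.5 and 20.6 CPM in HFD-NS and was not called (adjusted p = 0.846).

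The largest rise of all was that of Spink1, a secreted trypsin inhibitor of epithelial cells. Spink1 had 36.1, 45.1 and 28.1 CPM in HFD-338 and 0.117, 0.124 and 0 CPM in HFD-NS. With only 2 counts in HFD-NS, the ratio is 478, with a 95% counting interval of 132 to 3953. Gpc3, a cell surface proteoglycan of fetal liver and of liver tumours, had 41.7, 67.5 and 23.4 CPM in HFD-338 and 0.117, 0.497 and 0.843 CPM in HFD-NS (log2 6.42, SE 0.48, adjusted p = 4.02e-07). H19, an imprinted RNA that falls silent after birth, had 17.1, 31.7 and 11.7 CPM in HFD-338 against 0.467, 0.497 and 0.211 CPM in HFD-NS (log2 5.65). Each of these genes separated the groups without overlap, which the naming rule requires of the 15 largest rises, Spink1 and Gpc3 among them. In HFD-338, replicate 18 was the highest for all 3. Afp, the fetal counterpart of albumin, which was named after its values were seen, had 25.6, 33.4 and 8.38 CPM in HFD-338 and 1.52, 1.49 and 2.11 CPM in HFD-NS (adjusted p = 6.16e-05). Cbr3, a carbonyl reductase, had 16.6, 33.9 and 15.4 CPM in HFD-338 and 0.234, 0.372 and 0.527 CPM in HFD-NS (log2 5.78).

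Of the 24 tested genes on the list of fetal liver and secreted epithelial genes, 16 rose (66.7%) and 0 fell, with a median change of 1.80. The 15 largest rises that the naming rule allows also held 2 genes with 0 counts in all HFD-NS libraries whose products act outside the cell. Folh1, a membrane peptidase, had 3.42, 1.73 and 3.40 CPM in HFD-338, which is at least 24.9-fold higher, and Fbn2, a fibrillin of developing tissue, had 2.28, 2.97 and 3.27 CPM, at least 24.5-fold higher. These bounds use a floor of 3 counts over the whole HFD-NS group, and bounds and counting intervals cover counting error only. Spire2, an actin nucleator, and Cfap44, a protein of cilia, also had 0 counts in HFD-NS and were each at least 20.3-fold higher. Besides Spink1, 5 had a group total of 1 or 2 counts in HFD-NS, and the ratios with their intervals were 207 (36.7 to 8207) for Lrtm2, 192 (33.99 to 7618) for the epithelial glutathione peroxidase Gpx2, 138 (37.8 to 1146) for Tinag, 159 (28.1 to 6313) for Apela, a hormone of the embryo, and 116 (20.4 to 4629) for AV064505, of which 23.6% of the exon length overlaps Mmp7. Rian, a long RNA of the imprinted Dlk1-Dio3 region, had 10.8, 9.28 and 17.7 CPM in HFD-338 and 0.234, 0 and 0.211 CPM in HFD-NS (log2 6.20, SE 0.60). Meg3, its neighbour in that region, was named after its values were seen and changed by 5.43 (adjusted p = 7.97e-06). Members of the list that were not called included Cdkn1a, a brake of the cell cycle, with 116, 133 and 71.5 CPM in HFD-338 and 91.7, 57.9 and 39.7 CPM in HFD-NS (adjusted p = 0.097), and Lcn2, the secreted lipocalin, with 181, 324 and 49.2 CPM in HFD-338 and 33.3, 98.8 and 34.1 CPM in HFD-NS (adjusted p = 0.118).

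The genes with the smallest p-values among the rises were Cib3, Casp12, Itih5, Alcam and Cplane1. Cib3, a calcium- and integrin-binding protein, had 49.8, 44.4 and 43.5 CPM in HFD-338 and 0.584, 0.497 and 0.632 CPM in HFD-NS (log2 6.28, SE 0.33, adjusted p = 1.58e-09). Casp12, a caspase of the inflammatory group, had 56.3, 57.8 and 44.2 CPM in HFD-338 against 3.27, 3.23 and 3.37 CPM in HFD-NS (log2 3.996, adjusted p = 1.42e-10). Itih5, a matrix stabilizing protein, had 65.7, 69.6 and 68.1 CPM in HFD-338 and 9.11, 9.69 and 7.91 CPM in HFD-NS. All 5 lay above all 12 libraries of the other 4 groups, as did 10.2% of all tested genes and 1241 of the 2490 genes that rose. Lying above the 3 HFD-NS libraries was a condition for naming these 5. Group means of Casp12 were 3.58 CPM in HFD-337, 4.69 CPM in HFD-Res and 3.17 CPM in SD-NS, close to those of HFD-NS, whereas those of Cib3 were 8.06 CPM in HFD-337, 1.19 CPM in HFD-Res and 5.52 CPM in SD-NS.

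Genes of bile duct epithelium rose together. Of the 26 tested members of the list, 20 rose (76.9%) and 2 fell (7.69%), and the median change was 2.72, against 0.000933 for all genes. All 6 defining markers of bile duct cells, Krt7, Krt19, Epcam, Sox9, Spp1 and Cftr, were among those that rose, and their summed level was 580.6 to 735 CPM in HFD-338 and 47.4 to 63.1 CPM in HFD-NS. Spp1, the secreted protein osteopontin that macrophages also make, carried most of that sum, with 577, 519 and 663 CPM in HFD-338 and 46.9, 44.0 and 35.6 CPM in HFD-NS (log2 3.80, SE 0.46, adjusted p = 0.00011). Sox9, a transcription factor of bile duct cells and of hepatocytes that turn toward them, had 46.9, 35.2 and 40.05 CPM in HFD-338 and 14.4, 12.2 and 10.3 CPM in HFD-NS (log2 1.73). The keratins Krt19 and Krt7 were low throughout, at 3.22 to 5.76 CPM and 2.35 to 3.14 CPM in HFD-338, against 0.248 to 0.422 CPM and 0.117 to 0.422 CPM in HFD-NS. Cftr, the chloride channel of the duct surface, had 3 counts over all HFD-NS libraries, and the ratio was 21.7 with a counting interval of 7.07 to 108. In bulk tissue, more or fewer cells of a type and more or less RNA per cell cannot be told apart.

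St14, a membrane serine protease of epithelia, showed the largest change of the list, with 16.5, 18.8 and 10.3 CPM in HFD-338 and 0.467, 0.248 and 0.632 CPM in HFD-NS (log2 5.00, adjusted p = 1.83e-08). Prom1, a surface protein of liver progenitor cells, had 11.3, 9.65 and 11.5 CPM in HFD-338 and 0.350, 0.497 and 0.738 CPM in HFD-NS. Itgb6, an integrin subunit that activates TGF-beta, had 2 counts in HFD-NS, with a ratio of 27.2 and an interval of 7.15 to 230. The 2 members that fell were Lamb3, a laminin chain (-1.67, adjusted p = 0.00111), and the water channel Aqp1 (-0.92, adjusted p = 0.0132), which endothelium also makes and whose call was lost without HFD-338 replicate 18. Krt8 and Krt18, keratins that hepatocytes share with duct cells, were not called, with adjusted p = 0.654 and 0.0612. For 17 of the 26 genes the 3 HFD-338 libraries lay above all 12 others, against 10.2% of all tested genes.

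**Figure D2:**
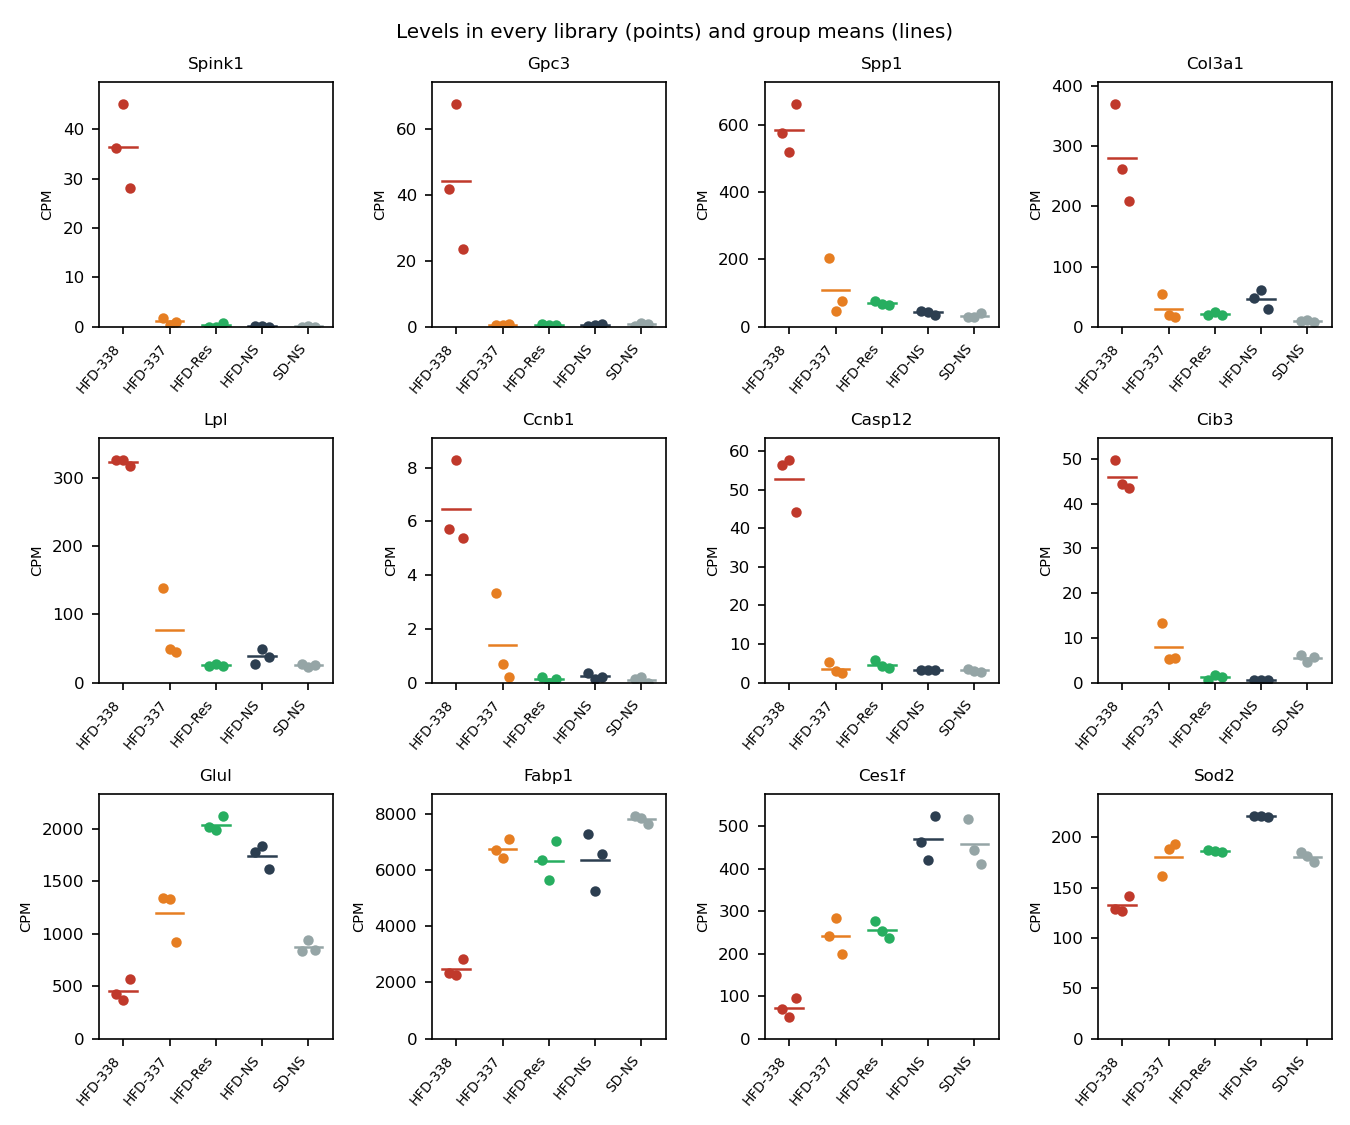
Levels of 12 genes in CPM on linear axes from 0, with 1 point per library, 3 libraries per group and lines at the group means. Spink1, Gpc3, Spp1, Col3a1, Lpl, Ccnb1, Casp12 and Cib3 are highest in all 3 HFD-338 libraries, and Glul, Fabp1, Ces1f and Sod2 are lowest in them.

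Collagens and other matrix proteins rose as a group. Of 32 tested members, 24 rose (75.0%) and 1 fell (3.12%), with a median change of 1.67, and for 24 the HFD-338 libraries lay above all 12 others. Col3a1, which forms fibrils with type I collagen, had 371, 262 and 209 CPM in HFD-338 and 47.6, 60.5 and 29.7 CPM in HFD-NS (log2 2.62, SE 0.42, adjusted p = 0.000656). Col1a1, a chain of type I collagen, had 114, 77.7 and 68.3 CPM in HFD-338 against 17.5, 18.4 and 8.64 CPM in HFD-NS (log2 2.56). Lum, the proteoglycan lumican that binds collagen fibrils, had 132, 91.7 and 56.9 CPM in HFD-338 and 10.98, 13.8 and 6.22 CPM in HFD-NS (log2 3.19). In each of these 3 genes, HFD-338 replicate 17 was the highest and replicate 19 the lowest of its group, and the groups did not overlap. Eln, the elastic fibre protein elastin, rose by 3.11 and the microfibril protein Mfap4 by 3.82. Spon1, a secreted adhesion protein, had the largest change of the list at 4.06, with 8.10, 5.44 and 4.58 CPM in HFD-338 and 0.467, 0.372 and 0.211 CPM in HFD-NS. The exception was Fn1, fibronectin, of which hepatocytes make the plasma form, with 855, 983 and 910.0 CPM in HFD-338 and 1201, 1453 and 1195 CPM in HFD-NS (log2 -0.49, adjusted p = 0.00145).

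Enzymes that cut matrix and their inhibitors moved less uniformly. Of 14 tested members, 7 rose (50%) and 1 fell, and without HFD-338 replicate 17 the number that rose was 4. Mmp7, the matrilysin of epithelia, had 21.6, 19.3 and 22.8 CPM in HFD-338 and 0, 0.372 and 0.316 CPM in HFD-NS (log2 6.42, SE 0.45, adjusted p = 1.77e-08). Timp2, an inhibitor of metalloproteinases, had 44.9, 33.6 and 30.4 CPM in HFD-338 and 10.9, 14.4 and 7.91 CPM in HFD-NS (log2 1.73). Mmp12, the elastase of macrophages, was not called, with 10.9, 8.66 and 13.9 CPM in HFD-338 and 8.76, 9.31 and 2.53 CPM in HFD-NS (adjusted p = 0.0927). Mmp19 fell, with a change of -0.58 (adjusted p = 0.00458), and 22.9% of its exon length overlaps another gene.

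Among genes of stellate cells and myofibroblasts, 11 of 26 rose (42.3%) and 3 fell (11.5%), with a median of 0.84. Ccn2, a matrix-bound growth factor, had 29.9, 27.3 and 25.3 CPM in HFD-338 and 6.54, 5.09 and 7.17 CPM in HFD-NS (log2 2.12, adjusted p = 8.59e-07). Pdgfra, a receptor of mesenchymal cells, had 37.0, 35.5 and 22.6 CPM in HFD-338 and 7.71, 9.06 and 8.01 CPM in HFD-NS (log2 1.94). Tgfb2, a ligand of the TGF-beta family, had 5.25, 5.07 and 4.32 CPM in HFD-338 and 1.17, 0.372 and 0.105 CPM in HFD-NS (log2 3.14). Markers that set stellate cells and contractile myofibroblasts apart were not called. Reln, made by stellate cells, had 67.6, 68.9 and 38.7 CPM in HFD-338 and 64.7, 64.4 and 57.2 CPM in HFD-NS (adjusted p = 0.758). Acta2, the smooth muscle actin of myofibroblasts, had 4.10, 1.48 and 0.916 CPM in HFD-338 and 1.87, 0.621 and 0.632 CPM in HFD-NS (adjusted p = 0.112). Lrat, the retinol esterifying enzyme of stellate cells, changed by 0.73 (adjusted p = 0.0548), and Des, desmin, by 0.16 (adjusted p = 0.673). Summed over the 8 defining markers of stellate cells and fibroblasts, levels were 753 to 1282 CPM in HFD-338 and 307 to 406 CPM in HFD-NS. The 4 of these markers that rose were Col1a1, Col3a1, Dcn and Pdgfrb, so the sum does not stand for stellate cells alone. Tpm2, a tropomyosin of contractile cells, fell to 3.76, 3.09 and 2.36 CPM in HFD-338, against 27.1, 31.9 and 26.2 CPM in HFD-NS (log2 -3.19, adjusted p = 0.000159), and Ecm1, a secreted matrix protein of hepatocytes, fell by 1.097.

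Genes of monocyte-derived and lipid-associated macrophages also rose, with 17 of 22 up (77.3%), 1 down (4.55%) and a median of 1.54. Ms4a7, a membrane protein of macrophages, had 18.2, 23.4 and 17.3 CPM in HFD-338 and 0.701, 0.993 and 0.949 CPM in HFD-NS (log2 4.45, SE 0.34, adjusted p = 3.89e-08). Lpl, the lipoprotein lipase that adult hepatocytes hardly make, had 326, 327 and 318 CPM in HFD-338 and 28.0, 49.3 and 38.0 CPM in HFD-NS (log2 3.08, adjusted p = 0.00011). Gpnmb, a glycoprotein of lipid-laden macrophages, had 29.5, 25.4 and 20.3 CPM in HFD-338 and 3.74, 6.83 and 2.95 CPM in HFD-NS (log2 2.49). These 3 genes lay above all 12 other libraries. Trem2, a lipid receptor of such macrophages, and Ccr2, the chemokine receptor of incoming monocytes, were called with changes of 1.61 (adjusted p = 0.0183) and 1.41 (adjusted p = 0.0231), and each call was lost without HFD-338 replicate 17, HFD-NS replicate 12 or HFD-NS replicate 16. All 5 defining markers of these macrophages rose, but the call of the marker Ly6c2 was also lost without HFD-338 replicate 18 or HFD-NS replicate 12. The summed level of the 5 markers was 78.9 to 108 CPM in HFD-338 and 22.8 to 40.7 CPM in HFD-NS. Apoe, which hepatocytes make in bulk, was the member that fell (-0.56).

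Resident Kupffer cells gave no such picture. Of 16 tested genes, 5 rose (31.2%) and 1 fell (6.25%), and the median of 0.53 became -0.14 without HFD-338 replicate 18. Clec4f, a lectin found on Kupffer cells, had 40.7, 93.8 and 19.5 CPM in HFD-338 and 48.9, 38.1 and 28.7 CPM in HFD-NS (adjusted p = 0.546). Vsig4, a complement receptor of these cells, had 18.1, 42.9 and 7.59 CPM in HFD-338 and 17.9, 17.0 and 6.54 CPM in HFD-NS (adjusted p = 0.357). Replicate 18 was the highest HFD-338 library for both, and the groups overlapped. Among those that rose were Adgre1, the F4/80 antigen of macrophages in general, with 29.4, 45.3 and 19.0 CPM in HFD-338 and 9.46, 13.7 and 12.3 CPM in HFD-NS (log2 1.40), and complement C1q genes, with C1qc at 1.27 and C1qb at 1.26. Cd163, a scavenger receptor for haemoglobin, fell to 0.342, 1.11 and 0.131 CPM in HFD-338, against 7.82, 5.59 and 1.16 CPM in HFD-NS (log2 -3.13, adjusted p = 0.00482), a call that limma-voom did not make.

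Genes of the liver sinusoidal endothelium, the fenestrated lining of the small vessels, mostly fell or were not called. Of 21 tested, 10 fell (47.6%) and 1 rose (4.76%), with a median of -0.49, and with TPM 6 fell. Lyve1, a hyaluronan receptor, had 9.69, 8.41 and 5.63 CPM in HFD-338 and 23.4, 23.2 and 18.4 CPM in HFD-NS (log2 -1.44, adjusted p = 1.49e-05). Oit3, a protein of sinusoidal endothelium, had 12.8, 9.52 and 8.64 CPM in HFD-338 against 24.2, 24.6 and 24.1 CPM in HFD-NS (log2 -1.23). Stab2, a scavenger receptor that takes up oligonucleotides, had 21.1, 16.3 and 16.5 CPM in HFD-338 and 37.5, 48.2 and 35.2 CPM in HFD-NS (log2 -1.16). The general endothelial gene Pecam1 had 17.1, 14.6 and 8.64 CPM in HFD-338 and 15.8, 22.4 and 15.5 CPM in HFD-NS and was not called (adjusted p = 0.156). Cd34, which capillary endothelium and fibroblasts carry, was the member that rose, to 17.0, 12 and 9.42 CPM in HFD-338, against 0.934, 1.12 and 0.843 CPM in HFD-NS (log2 3.72, adjusted p = 3.89e-07). Summed levels of the 5 defining markers were 52.1 to 91.3 CPM in HFD-338, 47.0 to 61.0 CPM in HFD-337 and 128 to 162 CPM in HFD-NS.

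Both tested mesothelium genes rose: Wt1, a transcription factor of mesothelium, had 2.62, 2.23 and 3.67 CPM in HFD-338 and 0.584, 0.621 and 0.632 CPM in HFD-NS (log2 2.17, adjusted p = 0.00161), and the membrane protein Gpm6a rose by 2.03. The 3 mesothelium markers summed to 3.09 to 7.20 CPM in HFD-338 and 0.584 to 1.05 CPM in HFD-NS, without overlap. All 3 tested genes of the adipocyte list fell, with a median of -1.88: Cfd, Car3 and Cidec, of which the Cidec call was lost with TPM and without any 1 of 5 of the 6 libraries. None of the 4 tested T and NK cell genes and none of the 3 tested neutrophil genes was called by edgeR. The neutrophil genes S100a8 and S100a9 were high in 1 library: S100a8 had 3.88, 66.7 and 2.62 CPM in HFD-338 and 1.05, 5.84 and 1.48 CPM in HFD-NS (adjusted p = 0.059), and DESeq2 called it. The markers of pancreatic acinar cells Cpa1, Prss2, Pnlip, Ctrb1 and Cel had 0 counts in all HFD-338 libraries, as did the adipocyte markers Plin1 and Lep and the gut and gallbladder markers Muc5b and Cdx2. Other markers of these types did have counts in HFD-338: acinar Cela1 and gut Vil1, neither called, Adipoq with 4 counts and Tff2 with 3. The acinar markers summed to 5.07 to 8.77 CPM in HFD-338 and 7.70 to 16.1 CPM in HFD-NS. Gut and gallbladder markers summed to 1.73 to 2.39 CPM in HFD-338 and 0.745 to 1.48 CPM in HFD-NS. Haemoglobin genes were not called. The 5 defining markers of hepatocytes summed to 90160 to 96700 CPM in HFD-338 and 93860 to 108600 CPM in HFD-NS, and 2 of them fell, Hnf4a and Ttr, of which the Ttr call (-0.38, adjusted p = 0.0376) was lost under 7 of the alternatives. The part that other cell types take in the groups described here was not tested.

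**Figure D3:**
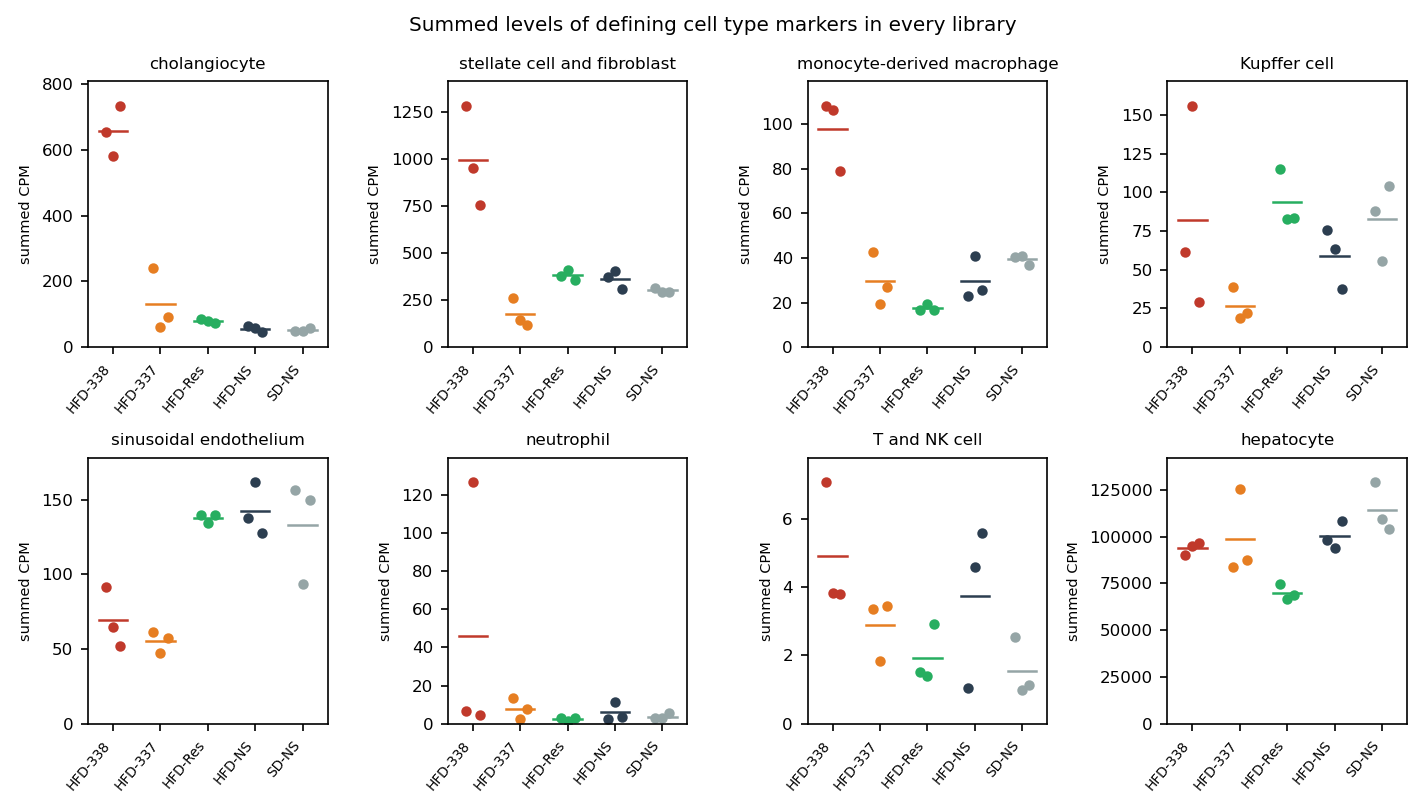
Summed CPM of the defining markers of 8 cell types on linear axes from 0, with 1 point per library, 3 libraries per group and lines at the group means. The HFD-338 libraries sit highest for bile duct, joint stellate cell and fibroblast, and monocyte-derived macrophage markers. Of the 8 stellate cell and fibroblast markers 4 rose, and Reln, Lrat and Des were not called. The HFD-338 libraries sit at or below 91.3 CPM for sinusoidal endothelium and within the range of other groups for hepatocyte markers, and replicate 18 stands apart for neutrophil markers.

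Genes of the cell cycle rose in HFD-338 livers. Of 32 tested, 26 rose (81.2%) and 0 fell, with a median change of 1.51. Ccnb1, the cyclin that drives entry into mitosis, had 5.70, 8.29 and 5.37 CPM in HFD-338 and 0.350, 0.124 and 0.211 CPM in HFD-NS (log2 4.70, SE 0.61, adjusted p = 1.16e-05). Cenpf, a kinetochore protein, had 7.53, 9.90 and 7.33 CPM in HFD-338 and 0.817, 0.621 and 0.632 CPM in HFD-NS (log2 3.54). Cdc20, an activator of the ubiquitin ligase that ends mitosis, had 6.84, 5.94 and 4.71 CPM in HFD-338 and 0.467, 0.248 and 0.843 CPM in HFD-NS (log2 3.41). Ube2c, the ubiquitin-conjugating enzyme of that ligase, had 5.13, 3.46 and 4.84 CPM in HFD-338 and 0.467, 0.745 and 0.105 CPM in HFD-NS (log2 3.35). The groups were apart for all 4. Directly against HFD-337, whose mean was 1.41 CPM, Ccnb1 was 2.27 higher, but neither Cdc20 (0.88) nor Ube2c (0.62) was called higher, since HFD-337 averaged 3.31 and 3.04 CPM. Genes not called included Ccnd3, a cyclin of the first growth phase (-0.02, adjusted p = 0.894), and Mcm7, a subunit of the replicative helicase (0.30, adjusted p = 0.139).

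Promoters of many such genes carry CCAAT boxes, bound by the factor NF-Y, and some carry the cell cycle homology region with the core TTTGAA. The 250 bases before the start of the 4 genes with the largest rises of the list are shown for those motifs, from RefSeq, build GRCm38.p6, 5′ to 3′ on the strand of the gene. Capitals mark CCAAT and TTTGAA on either strand (ATTGG and TTCAAA on the other).
Ccnb1, chr13:100786487-100786736, minus strand: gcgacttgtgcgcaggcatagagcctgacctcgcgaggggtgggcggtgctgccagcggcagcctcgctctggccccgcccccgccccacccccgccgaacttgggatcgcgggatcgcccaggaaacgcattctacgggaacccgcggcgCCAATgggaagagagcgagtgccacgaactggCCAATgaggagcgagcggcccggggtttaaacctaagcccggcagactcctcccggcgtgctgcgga
Cenpf, chr1:189688087-189688336, minus strand: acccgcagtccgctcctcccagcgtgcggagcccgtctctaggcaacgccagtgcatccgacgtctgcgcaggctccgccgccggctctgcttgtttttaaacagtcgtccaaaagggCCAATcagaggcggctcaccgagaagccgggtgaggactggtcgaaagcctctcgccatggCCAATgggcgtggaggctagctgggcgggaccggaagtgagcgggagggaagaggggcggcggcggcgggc
Cdc20, chr4:118437344-118437593, minus strand: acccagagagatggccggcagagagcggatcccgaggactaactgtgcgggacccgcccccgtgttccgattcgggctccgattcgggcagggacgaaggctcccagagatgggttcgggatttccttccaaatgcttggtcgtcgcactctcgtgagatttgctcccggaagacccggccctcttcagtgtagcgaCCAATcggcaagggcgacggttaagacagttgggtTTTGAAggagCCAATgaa
Ube2c, chr2:164769679-164769928, plus strand: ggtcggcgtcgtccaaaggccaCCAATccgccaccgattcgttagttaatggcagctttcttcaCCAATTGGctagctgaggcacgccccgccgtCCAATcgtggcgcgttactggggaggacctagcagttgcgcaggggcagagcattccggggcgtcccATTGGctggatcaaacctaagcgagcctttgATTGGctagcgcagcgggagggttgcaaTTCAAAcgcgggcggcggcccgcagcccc
The table of promoters held 25 of the 32 tested members of the list, and where a gene had several the one listed first was read. CCAAT on either strand was in 20 of the 25 (80.0%), against 36.5% of 10495 promoters of tested genes. TTTGAA was in 7 of the 25 (28.0%), against 11% of the 10495, and both were in 7, against 4.19%. Only the presence of a motif in a promoter was counted, so overlapping matches add nothing, and a match is a description of the letters. Of the 4 promoters shown, Ccnb1 and Cenpf hold CCAAT without TTTGAA, and Cdc20 and Ube2c hold both. The deposited coordinates are on build mm39, and no position was carried between the builds.

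Targets of p53, a factor activated by DNA damage, rose in 16 of 28 cases (57.1%) and fell in 3 (10.7%), with a median of 0.68. Psrc1 and Ckap2, both also proteins of the mitotic spindle, led the list, with 7.53, 10.9 and 6.81 CPM for Psrc1 in HFD-338 and 0.234, 0.372 and 0.422 CPM in HFD-NS (log2 4.54). Phlda3, an inhibitor of the kinase Akt, had 8.32, 9.40 and 4.97 CPM in HFD-338 and 0.584, 1.12 and 0.632 CPM in HFD-NS (log2 3.27). Fas, the death receptor, and Trp53inp1, an autophagy protein, were not called (adjusted p = 0.116 and 0.174), and neither was Cdkn1a. Ei24 and Perp fell, by 0.46 and 0.45 on the log2 scale. Genes of cell death and the inflammasome rose in 11 of 20 cases (55.0%), and 1 fell, and without HFD-NS replicate 12 the number that rose was 7. Casp4, the caspase that senses lipopolysaccharide, had 16.6, 17.9 and 10.7 CPM in HFD-338 and 1.75, 2.73 and 3.06 CPM in HFD-NS (log2 2.58, adjusted p = 2.22e-06). Mlkl, the pore-forming protein of necroptosis, had 12.8, 19.1 and 14.4 CPM in HFD-338 and 3.27, 5.46 and 4.11 CPM in HFD-NS (log2 1.85). Casp8 and Ripk1, which decide between apoptosis and necroptosis, were not called, with changes of -0.06 and -0.15.

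Of 42 interferon-stimulated genes, 20 rose (47.6%) and 2 fell (4.76%), with a median of 0.49. Oas1a, an enzyme that senses double-stranded RNA, had 19.6, 15.5 and 9.42 CPM in HFD-338 and 2.22, 2.73 and 2.42 CPM in HFD-NS (log2 2.59, adjusted p = 1.92e-06). H2-Aa and H2-Eb1, class II antigen-presenting molecules that macrophages and dendritic cells make, rose by 1.88 and 1.84, with 201, 181 and 143 CPM for H2-Aa in HFD-338 and 26.3, 55.9 and 59.9 CPM in HFD-NS. The class I gene H2-K1 and the GTPase Iigp1 were not called (adjusted p = 0.157 and 0.305). Cxcl10, an interferon-induced chemokine for T cells, fell to 10.7, 9.15 and 7.85 CPM in HFD-338, against 15.9, 20.6 and 14.7 CPM in HFD-NS (log2 -0.87, adjusted p = 0.00167). Compared directly, 19 of the 42 were lower in HFD-338 than in HFD-337 and 7 were higher, where 28.8% of all tested genes were lower and 29.6% higher.

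Chemokines and cytokines rose in 11 of 26 cases (42.3%) and fell in 1, and 7 rose without HFD-338 replicate 18 or without HFD-NS replicate 16. Cxcl16, a ligand for T and NKT cells, had 27.5, 27.3 and 18.2 CPM in HFD-338 and 5.84, 8.94 and 8.64 CPM in HFD-NS (log2 1.64, adjusted p = 1.16e-05), and 30.4% of its exon length overlaps Zmynd15. Cxcr4, a receptor of immune cells, had 8.66, 8.91 and 8.64 CPM in HFD-338 and 3.62, 2.23 and 2.74 CPM in HFD-NS (log2 1.60). Its ligand Cxcl12 was not called, with 336, 267 and 293 CPM in HFD-338 and 271, 324 and 321 CPM in HFD-NS (adjusted p = 0.874). Among 27 acute phase proteins, 5 fell (18.5%, close to the 17.9% of all genes), 1 rose (3.7%, against 18.9%) and 21 were not called. The fibrinogen chains Fga, Fgb and Fgg were among those not called. Saa3, a serum amyloid that macrophages also make, fell to 5.93, 4.70 and 3.80 CPM in HFD-338, against 18.2, 23.8 and 19.9 CPM in HFD-NS (log2 -2.09, adjusted p = 0.000179).

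**Figure D4:**
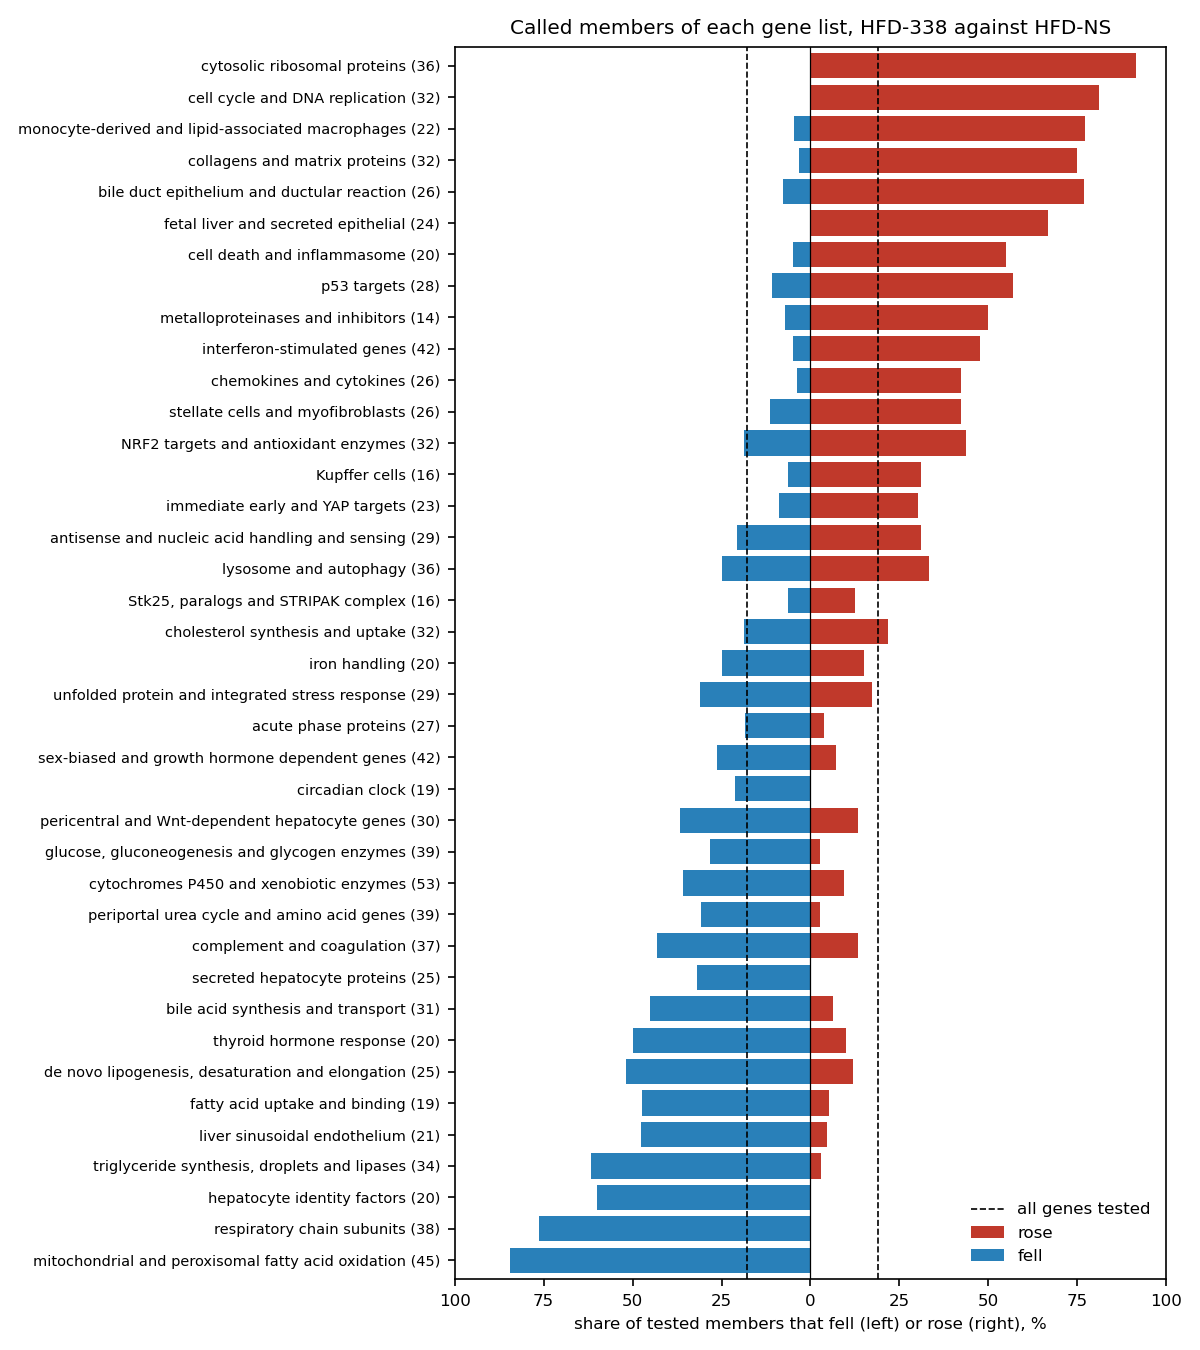
Bars give the share of tested members of each gene list that rose (right, red) or fell (left, blue) in HFD-338 against HFD-NS, for lists with at least 10 tested members, whose number stands in brackets. Dashed lines give the shares over all tested genes, 18.9% up and 17.9% down. Ribosomal, cell cycle, macrophage, matrix and bile duct genes stand at the top, and fatty acid oxidation and respiratory chain genes at the bottom.

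Transcription factors that hold hepatocytes in their mature state fell. Of 20 tested, 12 fell (60%) and 0 rose, with a median of -0.64. Hnf4a, the central factor of hepatocyte identity, had 359.5, 357 and 407 CPM in HFD-338 and 676, 665 and 612 CPM in HFD-NS (log2 -0.80, SE 0.11, adjusted p = 1.94e-05). Ppara, the receptor that turns on fat burning, had 217, 209 and 230.1 CPM in HFD-338 and 348, 432 and 420.3 CPM in HFD-NS (log2 -0.87). Cebpa, a factor of mature, resting hepatocytes, had 165, 138 and 171 CPM in HFD-338 and 309, 236 and 317 CPM in HFD-NS (log2 -0.87), and Foxa2, a factor that opens liver chromatin, fell by 0.90. No HFD-338 library reached the lowest HFD-NS library for any of these 4. Esrrg, an orphan nuclear receptor, changed most, with 0.570, 1.36 and 1.31 CPM in HFD-338 and 7.71, 7.45 and 9.70 CPM in HFD-NS (log2 -2.94). Prox1 and the xenobiotic sensor Nr1i2 were not called (adjusted p = 0.567 and 0.588).

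Of 25 tested genes for secreted products of hepatocytes, 8 fell (32.0%, against 17.9% of all genes), 0 rose and 17 were not called, with a median of -0.23, and 5 fell without HFD-338 replicate 18 or HFD-NS replicate 16. Alb, albumin, was not called (-0.04, adjusted p = 0.858), nor were the iron carrier Trf (-0.23, adjusted p = 0.169) and Apob, the protein core of exported lipoproteins (-0.14, adjusted p = 0.395). Apoa2, a protein of high-density lipoprotein, fell to 4516, 3472 and 4651 CPM in HFD-338, against 9550, 8362 and 10080 CPM in HFD-NS (log2 -1.15, adjusted p = 1.22e-05). Igfals, which stabilizes IGF1 in blood, had 29.9, 21.03 and 23.0 CPM in HFD-338 and 79.0, 45.1 and 67.6 CPM in HFD-NS (log2 -1.37). Genes of complement and coagulation fell in 16 of 37 cases (43.2%, against 17.9% of all genes) and rose in 5 (13.5%, against 18.9%), and the number that fell was 7 without HFD-338 replicate 18, 10 without HFD-NS replicate 16 and 9 with TPM. C9, the pore of the complement attack complex, rose to 1110, 1035 and 1035 CPM in HFD-338, against 402, 369 and 342 CPM in HFD-NS (log2 1.51, adjusted p = 0.000327), and F8, coagulation factor VIII, which sinusoidal endothelium makes, fell by 1.53.

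Genes of fatty acid oxidation fell more often than those of any other list with at least 10 tested members. Of 45 tested, 38 fell (84.4%) and 0 rose, with a median of -0.60, against 17.9% of all genes. Cyp4a14, an omega-hydroxylase induced by Ppara, had 558, 548 and 599 CPM in HFD-338 and 3132, 4106 and 3362 CPM in HFD-NS (log2 -2.64, SE 0.42, adjusted p = 0.000562). Acaa1b, a thiolase of peroxisomes, had 357, 312 and 423 CPM in HFD-338 and 1337, 1118 and 1268 CPM in HFD-NS (log2 -1.77). Acot3, an acyl-CoA thioesterase of peroxisomes, fell by 3.08 and Vnn1, a pantetheinase induced by Ppara, by 1.62. Cyp4a14 and Acot3 belong to families of close copies, between which the counting could split reads. Cpt1a, the gate of fatty acids into mitochondria, was not called, with 452, 518 and 456 CPM in HFD-338 and 544, 638 and 559 CPM in HFD-NS (adjusted p = 0.0623). The groups did not overlap, and Cpt1a was called lower without the filter on low counts, with limma-voom and in a fit restricted to both groups. Crot, a peroxisomal carnitine transferase, had a change of -0.04. Of the same 45 genes, 12 were higher and 8 lower in HFD-338 than in HFD-337 when the 2 groups were compared directly, and 40 were lower than in SD-NS. The shares over all genes of these direct tests are given with the comparisons between the groups.

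Subunits of the mitochondrial respiratory chain fell by smaller amounts. Of 38 tested, 29 fell (76.3%) and 0 rose, the median was -0.43 and the changes ran from -0.75 to 0.26. Ndufb9, a subunit of complex I, had 119, 106 and 136 CPM in HFD-338 and 209, 185 and 212 CPM in HFD-NS (log2 -0.75, adjusted p = 7.69e-05), and Sdhc, the membrane anchor of complex II, had 107, 97.3 and 110.5 CPM in HFD-338 and 175, 169.6 and 178 CPM in HFD-NS (log2 -0.73). For 17 of the 38 the HFD-338 libraries lay below all 12 others, against 6.6% of all tested genes. Sod2, the superoxide dismutase of mitochondria, moved with them, with 128, 127 and 142 CPM in HFD-338 and 221, 221 and 220.4 CPM in HFD-NS (log2 -0.74, adjusted p = 4.05e-06).

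Cytosolic ribosomal proteins rose in 33 of 36 cases (91.7%), and 0 fell, with a median of 0.51 and changes from -0.01 to 1.02. Rpl10a, of the large subunit, had 84.1, 79.0 and 74.6 CPM in HFD-338 and 39.9, 35.5 and 42.1 CPM in HFD-NS (log2 1.02, adjusted p = 8.91e-07), and Rps14, of the small subunit, had 316, 276 and 294 CPM in HFD-338 and 165, 160.5 and 170.4 CPM in HFD-NS. Ribosomal protein genes have many processed copies in the genome, between which the counting could split reads. Directly against HFD-337, 6 of the 36 were higher and 14 lower in HFD-338, and against HFD-Res 27 were higher. Over all tested genes, 29.6% were higher and 28.8% lower against HFD-337, and 22.2% were higher against HFD-Res. For Rps14, group means were 298 CPM in HFD-337, 174 CPM in HFD-Res and 229 CPM in SD-NS.

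**Figure D5:**
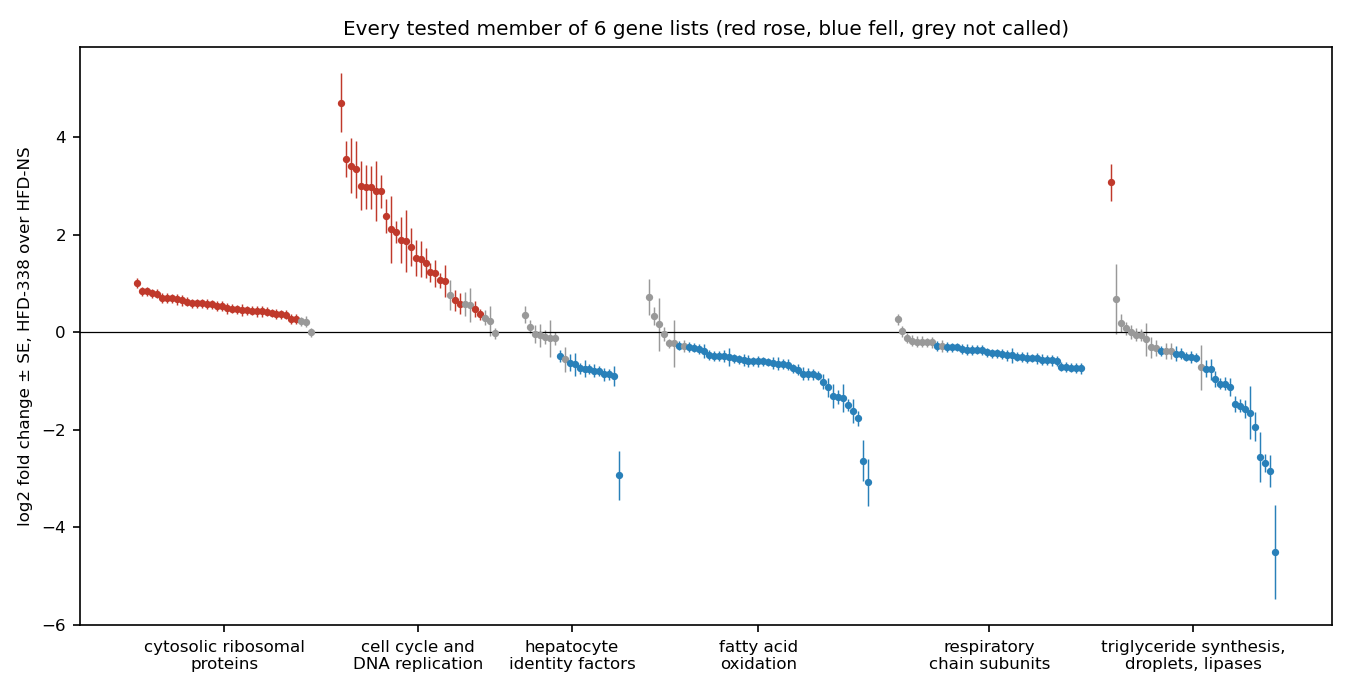
Log2 fold change of HFD-338 over HFD-NS with its SE for every tested member of 6 gene lists, ordered by size within each list, with members that rose in red, fell in blue and not called in grey. Ribosomal proteins form a narrow band above 0 up to 1.02, respiratory chain subunits a narrow band mostly below it, and cell cycle genes reach 4.70.

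Enzymes that make fat fell in 13 of 25 cases (52.0%) and rose in 3 (12%), with a median of -0.57. Acacb, the acetyl-CoA carboxylase that restrains fat burning, had 8.55, 9.03 and 8.24 CPM in HFD-338 and 51.3, 29.6 and 32.4 CPM in HFD-NS (log2 -2.13, SE 0.20, adjusted p = 1.23e-06). Thrsp, an inducer of lipogenesis, had 20.3, 14.97 and 27.2 CPM in HFD-338 and 94.2, 44.6 and 129 CPM in HFD-NS (log2 -2.10). Scd1, the main desaturase of liver, had 1848, 1004 and 3087 CPM in HFD-338 and 10980, 5140 and 11690 CPM in HFD-NS (log2 -2.23, adjusted p = 0.0132), a call lost without HFD-338 replicate 18. Its relative Scd2, the desaturase of brain and fetal liver, rose to 12.8, 15.5 and 14.3 CPM in HFD-338, against 3.74, 5.71 and 4.32 CPM in HFD-NS (log2 1.63, adjusted p = 9.05e-05). Elovl2, an elongase, was not called (adjusted p = 0.85).

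Genes of triglyceride synthesis, lipid droplets and lipases fell in 21 of 34 cases (61.8%), with a median of -0.51, and 1 rose (2.94%), which was Lpl. Cidea, which fuses lipid droplets in fatty liver, had 1.82, 0 and 0.785 CPM in HFD-338 and 43.1, 4.10 and 15.1 CPM in HFD-NS (log2 -4.51, adjusted p = 0.00372), and neither limma-voom nor a fit restricted to both groups called it. Fitm1, a droplet protein of the endoplasmic reticulum, had 4.90, 3.71 and 2.49 CPM in HFD-338 and 30.1, 23.0 and 28.2 CPM in HFD-NS (log2 -2.85, adjusted p = 2.08e-05). Plin4, a droplet coat protein, had 15.8, 17.4 and 19.1 CPM in HFD-338 and 93.2, 104 and 112 CPM in HFD-NS (log2 -2.56). Ces1f, a carboxylesterase from a cluster of close copies, had 70.2, 52.1 and 96.7 CPM in HFD-338 and 462, 419.7 and 524 CPM in HFD-NS (log2 -2.68). Plin2, the coat protein of most droplets in hepatocytes, was not called, with 616, 630.5 and 483 CPM in HFD-338 and 793, 807 and 562 CPM in HFD-NS (adjusted p = 0.146). Fabp1, the fatty acid carrier of hepatocytes, fell to 2342, 2260 and 2813 CPM in HFD-338, against 7273, 5255 and 6573 CPM in HFD-NS (log2 -1.36, adjusted p = 4.1e-07), whereas the fatty acid transporter Cd36 was not called (-0.48, adjusted p = 0.14). Among the genes with the smallest p-values of all falls were Retsat, a retinol saturase, with 165, 141 and 166 CPM in HFD-338 and 694, 669 and 613 CPM in HFD-NS (log2 -2.07), and Lpgat1, an acyltransferase, with a change of -1.78.

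Genes of bile acid synthesis and transport fell in 14 of 31 cases (45.2%) and rose in 2 (6.45%). Cyp8b1, which sets the share of cholic acid, had 202, 155 and 162 CPM in HFD-338 and 501, 367 and 413 CPM in HFD-NS (log2 -1.30, adjusted p = 0.00129). Slc10a1, which takes bile acids up from blood, had 306, 244 and 340.0 CPM in HFD-338 and 681, 599.9 and 770.2 CPM in HFD-NS (log2 -1.20). Abcc4, an exporter of bile acids into blood, rose to 13.2, 17.8 and 12.04 CPM in HFD-338, against 2.92, 3.23 and 1.90 CPM in HFD-NS (log2 2.42, adjusted p = 8.91e-07). Cyp7a1, the rate-limiting enzyme of bile acid synthesis, had 77.0, 67.9 and 53.3 CPM in HFD-338 and 255, 149.7 and 189 CPM in HFD-NS (log2 -1.58, adjusted p = 0.0262), a call lost without any 1 of HFD-338 replicates 17, 18 and 19 or HFD-NS replicates 12 and 16. The exporters Abcc2 and Abcb4 of the canalicular membrane were not called (adjusted p = 0.335 and 0.305).

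Cytochromes P450 and related enzymes fell in 19 of 53 cases (35.8%) and rose in 5 (9.43%). Several of the largest changes lay in groups of close copies, between which the counting could split reads, so that single values are uncertain. Cyp2b9 had 5.13, 15.5 and 11.8 CPM in HFD-338 and 151, 464 and 192 CPM in HFD-NS (log2 -4.65, adjusted p = 0.00223), and Cyp17a1, a steroid hydroxylase, had 5.93, 5.32 and 6.41 CPM in HFD-338 and 52.0, 58.4 and 88.2 CPM in HFD-NS (log2 -3.49). Cyp2a4, a steroid hydroxylase, rose to 198, 386 and 197 CPM in HFD-338, against 3.97, 11.9 and 6.11 CPM in HFD-NS (log2 5.16, adjusted p = 6.04e-06). Its mean was 528 CPM in HFD-Res and 6.88 CPM in HFD-337. Of 42 sex-biased and growth hormone dependent genes, 11 fell (26.2%), 3 rose (7.14%) and 28 were not called. Mup20, a major urinary protein of male mice, had 30700, 18510 and 35600 CPM in HFD-338 and 7880, 2291 and 3587 CPM in HFD-NS (log2 2.62, adjusted p = 0.00256). Trhde, a peptidase that degrades thyrotropin-releasing hormone, fell to 0, 0.124 and 0.131 CPM in HFD-338, against 3.04, 2.23 and 3.06 CPM in HFD-NS (log2 -4.81). With so few counts in HFD-338 the size of this fall is uncertain, and it ran from -5.17 to -0.81 under the alternatives.

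Hepatocytes around the central vein detoxify ammonia to glutamine. Of 30 pericentral genes, 11 fell (36.7%, against 17.9% of all genes) and 4 rose (13.3%, against 18.9%). The median change of the 30 was 0.08, and it ran from -0.04 to 0.18 under the alternatives. Glul, the glutamine synthetase of the innermost layer, had 427, 367 and 569.9 CPM in HFD-338 and 1785, 1838 and 1615 CPM in HFD-NS (log2 -1.94, SE 0.15, adjusted p = 5.56e-08). Slc1a2, the glutamate transporter of the same layer, had 48.7, 51.3 and 123 CPM in HFD-338 and 266, 332 and 323 CPM in HFD-NS (log2 -2.05). The pericentral P450 Cyp1a2 (0.20, adjusted p = 0.347) and the claudin Cldn2 (-0.24, adjusted p = 0.237) were not called. Rhbg, an ammonium transporter of the same zone, rose by 1.58 (adjusted p = 0.000956). Of 39 periportal urea cycle and amino acid genes, 12 fell (30.8%), 1 rose and 26 were not called, among them Cps1, the first enzyme of the urea cycle, with 3306, 2895 and 3635 CPM in HFD-338 and 2282, 3113 and 3369 CPM in HFD-NS (adjusted p = 0.622). Pcx, pyruvate carboxylase, fell to 218, 214 and 216 CPM in HFD-338, against 441, 415 and 422 CPM in HFD-NS (log2 -0.98, adjusted p = 7.58e-08), while Pck1, the next enzyme of glucose synthesis, was not called (adjusted p = 0.937).

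Of 32 tested targets of the stress factor NRF2 and antioxidant enzymes, 14 rose (43.8%, against 18.9% of all genes) and 6 fell (18.8%, against 17.9%). Slc7a11, the cystine importer, had 15.1, 20.5 and 3.80 CPM in HFD-338 and 0.350, 1.24 and 0.211 CPM in HFD-NS (log2 4.46, adjusted p = 7.26e-05), and Gstm3, a glutathione transferase, had 162, 248 and 102 CPM in HFD-338 and 23.6, 20.7 and 16.7 CPM in HFD-NS (log2 3.07). Gpx1, the main cytosolic glutathione peroxidase, fell to 980.0, 952 and 997 CPM in HFD-338, against 1536, 1735 and 1502 CPM in HFD-NS, and Sod1, the cytosolic superoxide dismutase, fell by 0.59. Gclc, which limits glutathione synthesis, was not called (-0.31, adjusted p = 0.0876). Of the YAP targets on a list with immediate early genes, Ajuba, a scaffold that binds Lats kinases, had 18.6, 12.6 and 11.3 CPM in HFD-338 and 2.33, 2.98 and 1.58 CPM in HFD-NS (log2 2.63), and Ankrd1, with 1 count in HFD-NS, had a ratio of 97.0 with an interval of 17.0 to 3872. Yap1 itself fell to 66.6, 69.5 and 74.2 CPM in HFD-338, against 97.5, 91.3 and 86.0 CPM in HFD-NS (log2 -0.39, adjusted p = 0.000952). Of the 23 tested genes of that list 7 rose (30.4%), 2 fell and 14 were not called, among them Egr1 and Jun. The number that rose was 4 without HFD-338 replicate 17 or 18, without HFD-NS replicate 12 or 16, and with no filter on low counts.

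The HFD-338 livers were also compared directly with each other group in the same fit. All of these comparisons share the HFD-338 libraries. Against HFD-337, 58.4% of genes were called, 29.6% higher and 28.8% lower in HFD-338. Against HFD-Res, 43.1% were called, 22.2% higher and 20.9% lower. Against SD-NS, 48.7% were called, 23% higher and 25.7% lower. Of the 26 bile duct genes, 20 were higher in HFD-338 than in HFD-337, 21 than in HFD-Res and 21 than in SD-NS. Of the 32 matrix genes, 29 were higher than in HFD-337, 26 than in HFD-Res and 30 than in SD-NS. Of the 38 respiratory chain genes, 27 were lower than in HFD-337, 31 than in HFD-Res and 28 than in SD-NS. Of the 20 hepatocyte identity factors, 10 were lower than in HFD-337, 14 than in HFD-Res and 13 than in SD-NS. Each of these counts lies above the share of all genes in its comparison. The 21 sinusoidal endothelium genes went the other way against HFD-337, with 16 higher and 0 lower in HFD-338, while 9 were lower than in HFD-Res and 11 lower than in SD-NS. The 34 triglyceride and droplet genes were lower than in HFD-337 in 15 cases, than in HFD-Res in 20 and than in SD-NS in 22.

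Genes were also grouped by the length of genome they span. Of the 3544 tested genes that span under 10 kb, 15.8% rose and 18.8% fell, with a median change of -0.08. Of 8062 genes of 10 to 100 kb, 19.4% rose and 16.7% fell, and of 1028 genes of 100 to 200 kb, 24.1% rose and 19.6% fell. Of 555 genes of 200 kb and over, 21.8% rose and 25.6% fell. Wwox, a tumour suppressor that spans 913060 bases, had 0.342, 0.247 and 0.523 CPM in HFD-338 and 4.44, 4.84 and 3.90 CPM in HFD-NS (log2 -3.51, SE 0.36, adjusted p = 8.91e-07). Immp2l, a mitochondrial peptidase subunit that spans 928283 bases, had 7.75, 7.92 and 8.90 CPM in HFD-338 and 27.6, 28.2 and 29.8 CPM in HFD-NS (log2 -1.80, adjusted p = 3.14e-08). Fhit and Dpyd, which span 1611942 and 870745 bases, were named after their values were seen, and fell by 2.49 and 1.08 on the log2 scale. Macrod2, which spans 1994621 bases and was named likewise, had a change of 0.03 (adjusted p = 0.953). Directly against HFD-337, Wwox (-0.53) and Immp2l (0.11) were not called.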

How the data were processed

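Polyadenylated RNA from mouse liver was sequenced, with 3 libraries in each of 5 groups. Per the submitters' processing notes, the tools were featureCounts 2.0.1, STAR 2.7.10b, Bowtie 1.3.1 and Trim Galore 0.6.10, with build mm39. The deposited values are raw read counts per gene, made per the file headers by featureCounts over exons, without strand and with each read assigned to all genes under it, so overlapping and antisense genes share reads. The 15 columns of TPM values in the deposited files were not used, and TPM was recomputed from the counts and exon lengths as an alternative.

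The counts were filtered with filterByExpr, scaled by TMM and tested with edgeR 4.0.16 (limma 3.58.1, R 4.3.3) by the quasi-likelihood test over all 15 libraries in 1 fit, with Benjamini-Hochberg adjustment over the 13189 genes. Alternatives were DESeq2 1.42.0, RLE size factors, quality-weighted limma-voom, no filter, limma on log2(TPM + 1), a fit restricted to HFD-338 and HFD-NS, and each library left out. The fit was tested on simulated data in which far fewer genes changed than were called here, with rises and falls balanced. That test does not cover a comparison with as many changes as this one. Counts of libraries outside the range of the other 12 were added to the alternatives after seeing the data.

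Named were, among called genes of at least 1 CPM on average whose groups did not overlap, the 15 largest rises and falls and the 5 smallest p in each direction. For each of the 46 gene lists, up to 4 called members per direction and the 3 highest members not called could be named, as could cell type markers, Stk25, Stk24, Stk26 and Farp2. The comparison, the lists and the rule were chosen with earlier results of these data known, so they are no independent support. List counts are descriptions and were not tested.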

Additional observations from a re-analysis of the deposited data

How the results depend on the processing

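The count of called genes was 3614 to 4510 when 1 library of HFD-338 or HFD-NS was left out, against 4847 with all, with 1929 to 2405 rising, 1685 to 2162 falling and 1548 to 1945 changed at least 2-fold. The number called was 6817 to 7643 against HFD-337, 4532 to 5287 against HFD-Res and 5377 to 6071 against SD-NS, and the log2 change of Stk25 was -1.163 to -1.088. With TPM, 1359 genes fell, against 2357 with TMM counts, and the cause was not tested. The count of genes outside the range of the other 12 libraries was 2218, and 2342 to 3102 with 1 library left out, where fewer libraries set the range. Over the 395 named genes and their alternatives, 4472 values kept direction and call, 158 lost a call and 89 gained one. Marco, a scavenger receptor of Kupffer cells, changed direction without HFD-338 replicate 18, to -1.524 (edgeR adjusted p = 0.0412), and its change ran up to 0.9889 without HFD-338 replicate 17. No paired analysis was possible because the groups share no replicate numbers. Depth limits genes with few counts in a group. Bounds or counting intervals are given for many of these, but not for Trhde.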

Other observations

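Of the 20 tested genes that respond to thyroid hormone, 10 fell (50%, against 17.9% of all genes) and 2 rose (10%, against 18.9%) in HFD-338. Dio1, the deiodinase that activates thyroid hormone, had 32.4, 45.1 and 39.4 CPM in HFD-338 and 143, 142 and 124 CPM in HFD-NS (log2 -1.81, edgeR adjusted p = 0.000304), and its mean was 679 CPM in HFD-Res. Of 19 circadian clock genes, 4 fell (21.1%, close to the 17.9% of all genes) and 15 were not called. The number that fell was 2 with TPM or without HFD-338 replicate 18. Nr1d1, a repressor of the clock, had 22.1, 20.04 and 32.7 CPM in HFD-338 and 49.7, 68.3 and 68.9 CPM in HFD-NS (log2 -1.32). The labels used here give no hour of sampling.

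Of 29 genes that handle or sense nucleic acids, 9 rose (31.0%, against 18.9% of all genes) and 6 fell (20.7%, against 17.9%). Tlr7, a sensor of single-stranded RNA, had 9.23, 11.01 and 9.16 CPM in HFD-338 and 3.04, 3.35 and 3.37 CPM in HFD-NS (log2 1.58, edgeR adjusted p = 4.57e-05). Mavs, the adaptor of the RNA sensors in the cytosol, fell to 52.0, 43.8 and 48.8 CPM in HFD-338, against 83.5, 73.8 and 70.2 CPM in HFD-NS (log2 -0.65).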
